A study of Mus musculus with 24 samples.

Results

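The 34 genes described here are expressed by adipocytes, and the values are their FPKM (fragments per kilobase of transcript, scaled to library depth, so that levels of different genes can be compared) in RNA sequencing of mouse pancreatic stellate cells (PSC). They are 34 of the 53801 genes listed in the deposited table, found by symbol and gene identifier. They were chosen by values of these same data, namely the FPKM of adipocyte genes in the inverse model, which were higher at 72 h than at 24 h in control PSC and low in co-cultured PSC. The inverse model therefore chose them. Its values, and the counts of genes that passed a threshold in it, describe that choice and are no test of it. The standard model was not used in that choice, and its comparisons are tested. The choice had no numeric threshold. A gene was tested in a comparison where 3 or more of its 6 libraries exceeded 1 FPKM. Of the 34 genes, 29 met this in one comparison or more, of which Klb met it in 2, Lgals12 in 4 and Serpina3c in 7 of the 8 comparisons, and Cidea, Gpihbp1, Pck1, Lep and Acvr1c met it in none.

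PSC are pancreatic cells that store vitamin A in lipid droplets at rest and become myofibroblast-like once activated. They were isolated from wild-type C57BL/6J mice of 7 to 10 weeks, with 4 to 10 pancreata of both sexes pooled for each isolation, and used at passage 1 to 2. KPC cells are a pancreatic cancer line from a single mouse with Trp53 R172H and p48-Cre among its alleles. The 24 libraries form 8 groups of 3. In each of 2 models, PSC grown with KPC cells and controls grown alone were taken after 24 h and after 72 h. In standard co-culture, called distant in the labels, KPC cells lay at the bottom of the well and PSC on an insert membrane with 1 µm pores above them. In inverse co-culture, called close in the labels, KPC cells were attached to the underside of the membrane that carried the PSC. All groups share the wild-type PSC and, from time zero, the same medium. Before that, PSC of the standard model, controls included, were seeded in low glucose DMEM with F12 mixture and more serum, and those of the inverse model and its controls directly in advanced DMEM/F-12. The longest coexistence was 96 h in the inverse and 72 h in the standard model, and library input was 120 ng of RNA in the inverse and 450 ng in the standard model, so distance, seeding medium, coexistence time and input cannot be told apart between models. Nothing in the labels ties a library to an isolation, so p-values measure the spread between these libraries only.

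Adipocytes store triglyceride in a single large lipid droplet. Their differentiation is driven by the nuclear receptor PPARG together with C/EBP factors, which switch on droplet coat proteins, fatty acid uptake, glycerol synthesis and secreted hormones called adipokines. In the pancreas, adipocytes lie between the lobules and around the organ, while quiescent PSC hold small retinoid droplets and lose them on activation.

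The libraries hold 15932737 to 24798761 counted fragments. The labelled cell type was checked against its markers. Activated PSC genes were high in every library, with Col1a1 at no less than 4918 FPKM and Acta2, which encodes smooth muscle actin, at no less than 476 FPKM, and Des, encoding desmin, ranged from 26.2 to 87.8 FPKM. Of the markers of quiescent PSC, Lrat, the retinol esterifying enzyme, did not exceed 0.0306 FPKM and Gfap did not exceed 0.238 FPKM, so both are in effect absent. Of 10 endothelial markers, Pecam1, Cdh5, Cldn5, Emcn, Tie1, Kdr and Vwf stayed under 1 FPKM in every library, while Egfl7 exceeded 1 FPKM in 24 libraries (up to 6.35), Flt1 in 23 (up to 3.24) and Tek in 21 (up to 2.15). Of 14 genes of thermogenic fat, Ucp1 did not exceed 0.113 FPKM and Zic1 did not exceed 0.0360 FPKM, while Lhx8, a transcription factor on the same list, reached 10.2 FPKM. Of the defining adipocyte genes, Adipoq, Plin1, Cidec and Cfd were detected in all 24 libraries, while Lpl, Hp, G0s2, Fabp5, Pparg, Adipor2 and Retsat are also used by fibroblasts or macrophages. In bulk RNA, fewer cells of a type and less RNA per cell cannot be told apart.

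Promoter sequences were available in RefSeq (GRCm38.p6) for 22 of the 34 genes, with 28 promoters. The 250 bases before each start were searched on both strands for the direct repeat that PPARG and RXR bind (AGGTCA in tandem with a single spacer base), for the hexamer AGGTCA alone, the C/EBP site TTGCNNAA, the CCAAT box and the TATA box TATAAA. The hexamer lies within the repeat, so these motifs overlap. The repeat was in 0 of the 28 promoters and in 0.0335% of the 32851 mouse promoters of the same length. The hexamer was in 6 of the 28 and in 14% of all, and the C/EBP site was in 6 of the 28, those of Cidec, Lep, Plin1, Pparg, Rbp4 and Retsat, and in 9.56% of all. A CCAAT box was in 7 of the 28 and in 33.8% of all, and a TATA box was in 5 of the 28 and in 12.4% of all. The promoters of both transcription factors and of a strong adipokine and a droplet-associated gene are shown as examples with matches. Their windows hold no annotated exon. Other windows without an exon are not shown, and among them those of Retn, Cfd and Adipor2 hold no match. Each is written 5′ to 3′ on the strand of the gene with motif matches in capitals. The Pparg window is that of the most downstream start, chr6:115421816-115422065 on the plus strand, the Cebpa window is chr7:35119043-35119292 on the plus strand, the Adipoq window is chr16:23146286-23146535 on the plus strand and the Adig window is chr2:158502362-158502611 on the plus strand.
Pparg: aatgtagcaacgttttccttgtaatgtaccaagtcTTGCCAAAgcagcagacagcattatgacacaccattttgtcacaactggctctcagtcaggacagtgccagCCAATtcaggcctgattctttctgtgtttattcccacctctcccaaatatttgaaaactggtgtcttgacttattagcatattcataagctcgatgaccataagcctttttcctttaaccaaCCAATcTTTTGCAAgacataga
Cebpa: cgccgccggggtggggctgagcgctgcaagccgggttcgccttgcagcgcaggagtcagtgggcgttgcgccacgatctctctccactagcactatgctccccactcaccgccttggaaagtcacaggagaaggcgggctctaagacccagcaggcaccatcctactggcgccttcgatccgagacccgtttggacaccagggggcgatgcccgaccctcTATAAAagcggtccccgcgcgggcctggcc
Adipoq: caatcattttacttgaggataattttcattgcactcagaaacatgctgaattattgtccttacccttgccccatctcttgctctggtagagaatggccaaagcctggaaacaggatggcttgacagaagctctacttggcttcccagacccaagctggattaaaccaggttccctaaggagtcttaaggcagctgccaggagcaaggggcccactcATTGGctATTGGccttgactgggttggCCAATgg
Adig: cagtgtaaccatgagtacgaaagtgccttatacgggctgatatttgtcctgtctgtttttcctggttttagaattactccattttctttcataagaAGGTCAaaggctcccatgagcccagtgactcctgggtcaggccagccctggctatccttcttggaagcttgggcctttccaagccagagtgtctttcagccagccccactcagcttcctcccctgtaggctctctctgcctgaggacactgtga
In the Pparg window the capitals mark C/EBP sites 215 and 16 bases before the start and CCAAT boxes 144 and 22 bases before it. The Cebpa window holds a TATA box 30 bases before the start, the Adipoq window CCAAT boxes 34, 27 and 7 bases before it, and the Adig window the hexamer 154 bases before it. Matches are letters in a window and were not tested as binding sites.

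Pparg, the nuclear receptor at the head of the programme, had 40.2, 31.7 and 38.3 FPKM in replicates 1, 2 and 3 of standard control PSC at 24 h and 28.7, 51.2 and 45.2 at 72 h, beside 29.6, 31.2 and 42.8 (24 h) and 28.7, 27.5 and 47.7 (72 h) in standard co-culture. In the inverse model Pparg had 38.7, 39.5 and 43.3 FPKM in controls at 24 h and 63.1, 44.0 and 66.6 at 72 h, beside 36.1, 31.9 and 19.6 (24 h) and 25.2, 26.6 and 10.4 (72 h) in co-culture. The standard co-culture and control libraries of Pparg overlapped, while at 72 h every inverse co-culture library lay under every inverse control. Cebpa, the C/EBP factor of mature adipocytes, had 51.5, 119 and 150.3 (24 h) and 69.4, 172.02 and 171 (72 h) FPKM in standard controls, and 56.8, 96.9 and 125 (24 h) and 70.1, 76.8 and 105 (72 h) in standard co-culture. Inverse libraries of Cebpa had 137, 145 and 162 (24 h) and 274, 194 and 263 (72 h) FPKM in controls and 115, 108 and 46.7 (24 h) and 57.4, 71.9 and 39.7 (72 h) in co-culture. Replicate 1 was the lowest standard library of Cebpa in all 4 groups.

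Plin1, which encodes the coat protein perilipin 1 of adipocyte droplets and lies on chromosome 7 from 79720218 to 79732903, had 22.6, 43.1 and 124 FPKM in standard controls at 24 h and 10.8, 118 and 110.5 at 72 h. In standard co-culture Plin1 had 18.3, 41.2 and 117 FPKM at 24 h and 15.02, 33.2 and 89.6 at 72 h. In inverse controls it had 54.7, 51.2 and 84.5 FPKM at 24 h and 343, 204 and 298 at 72 h, and in inverse co-culture 50.1, 31.5 and 17.7 (24 h) and 13.2, 29.8 and 5.82 (72 h). The 3 inverse controls of 72 h were the highest libraries of Plin1, and the co-culture library with replicate number 3 at 72 h was the lowest of all 24. Cidec, which encodes a protein that fuses droplets, had 4.14, 14.9 and 54.7 (24 h) and 1.13, 19.97 and 29.4 (72 h) FPKM in standard controls, and 6.63, 11.4 and 42.2 (24 h) and 2.53, 3.80 and 23.4 (72 h) in standard co-culture. For inverse libraries the values of Cidec were 12.5, 15.1 and 18.9 (24 h) and 50.1, 20.6 and 71.5 (72 h) FPKM in controls, and 17.9, 11.1 and 3.47 (24 h) and 3.49, 5.81 and 0.934 (72 h) in co-culture. The lowest of its 24 libraries was inverse co-culture at 72 h with 0.934 FPKM. Its relative Cidea, known from brown fat, was at 0 in all but 3 libraries and rested on 8 fragments in all, so no change could be seen at this depth. Plin4, another droplet coat gene, ranged from 1.02 to 23.5 FPKM, Adig, a small membrane protein of adipocytes, from 0.0931 to 20.8 FPKM and Lgals12, a droplet-bound galectin, from 0.0411 to 7.20 FPKM. G0s2, an inhibitor of triglyceride lipolysis, was present throughout at 31.5 to 379.7 FPKM, and Fitm2, which helps droplets to form at the endoplasmic reticulum, at 4.74 to 20.47 FPKM.

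**Figure D1:**
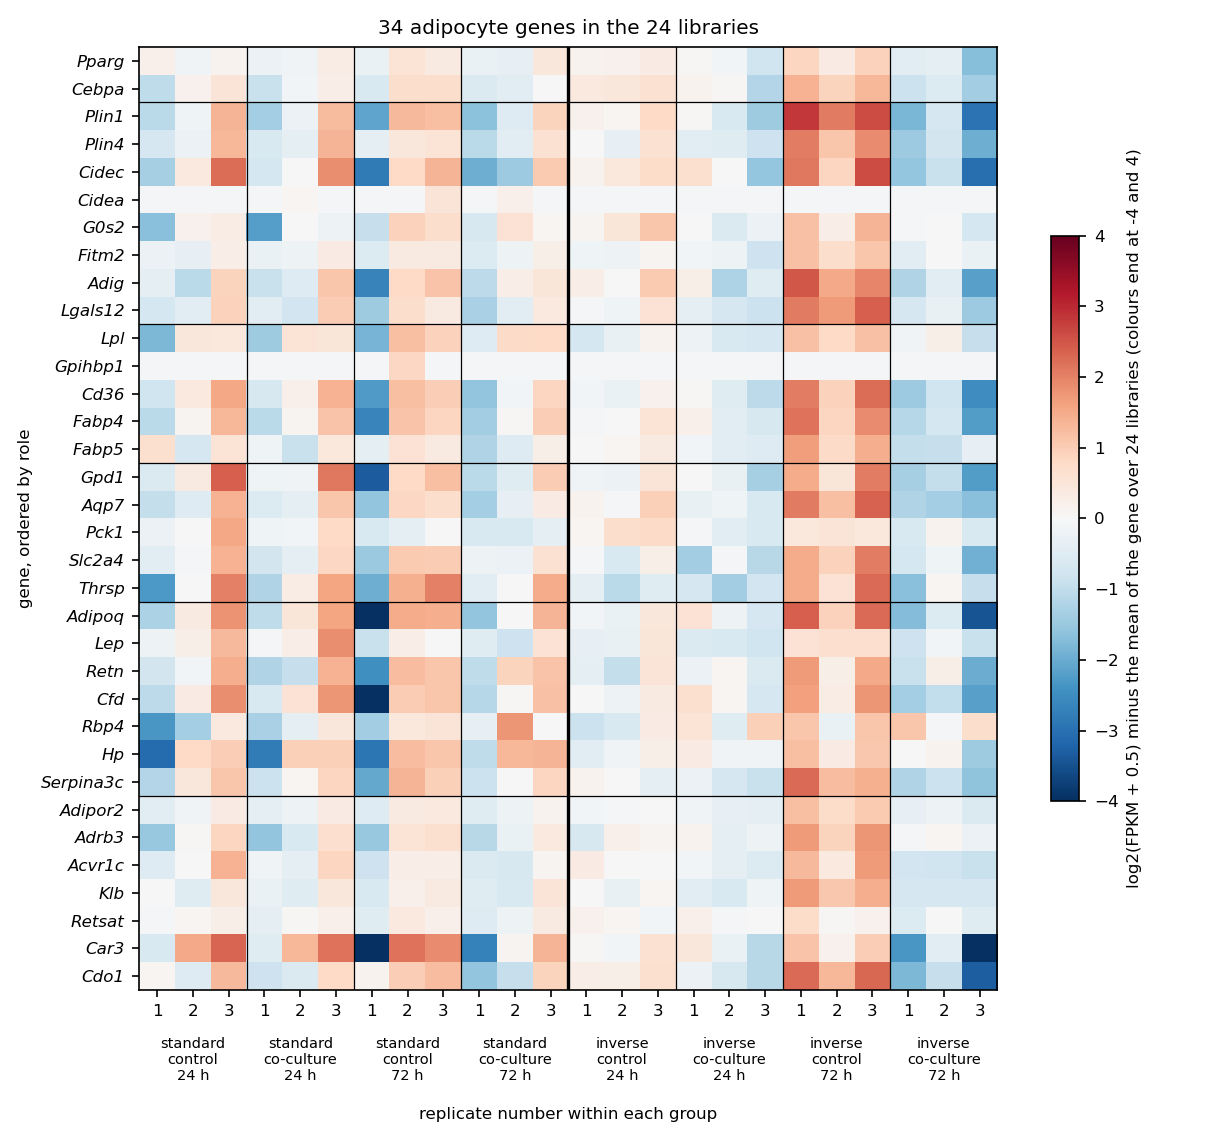
Heat map of the 34 genes (rows, ordered by role, with lines between roles) in the 24 libraries (columns, 3 replicate numbers in each of 8 groups), as log2(FPKM + 0.5) minus the mean of each gene, with colours ending at -4 and 4. Most rows are red in the 3 inverse controls of 72 h and blue in inverse co-culture of 72 h, and in the standard model most rows are blue in replicate 1 and red in replicate 3 in all 4 groups.

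Lpl, the lipase that releases fatty acids from lipoproteins, had the highest mean FPKM of the 34, with 205, 972 and 954 (24 h) and 197, 1636 and 1343 (72 h) FPKM in standard controls and 263, 1051 and 1001 (24 h) and 503, 1212 and 1241 (72 h) in standard co-culture. Among inverse libraries, Lpl had 436, 579 and 779 (24 h) and 1596, 1243 and 1608 (72 h) FPKM in controls and 619.9, 466 and 446 (24 h) and 647, 833 and 376 (72 h) in co-culture. Replicate 1 of the standard model was low for Lpl in every group, and at 24 h in the inverse model the groups overlapped. Fabp4, a fatty acid-binding protein of adipocytes and macrophages, had 32.03, 73.0 and 172.04 (24 h) and 10.5, 151 and 124 (72 h) FPKM in standard controls and 32.2, 73.3 and 152 (24 h) and 25.7, 70.1 and 135 (72 h) in standard co-culture. The inverse values of Fabp4 were 64.4, 68.6 and 98.9 (24 h) and 311, 124 and 254 (72 h) FPKM in controls and 79.4, 51.2 and 44.1 (24 h) and 30.5, 42.1 and 14.2 (72 h) in co-culture, with no overlap at 72 h. Cd36, a fatty acid transporter, ranged from 4.24 FPKM in inverse co-culture at 72 h to 123 FPKM in an inverse control at 72 h. Fabp5, a broadly expressed relative of Fabp4 with processed copies elsewhere in the genome that could share its reads, ranged from 14.8 to 112 FPKM and was the member with the smallest share of its spread between replicate numbers in the standard model (31.3%). Gpihbp1, which holds LPL on capillary endothelium, was at 0 in all libraries but 1, where 7 fragments were counted.

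Gpd1, which makes the glycerol backbone of triglyceride, had 12.2, 24.1 and 99.7 (24 h) and 1.42, 33.0 and 43.2 (72 h) FPKM in standard controls and 16.5, 16.97 and 81.3 (24 h) and 8.48, 13.2 and 37.8 (72 h) in standard co-culture. Among the inverse groups, Gpd1 had 16.9, 15.6 and 26.9 (24 h) and 52.6, 26.0 and 78.8 (72 h) FPKM in controls and 18.3, 14.9 and 7.13 (24 h) and 7.04, 9.27 and 3.52 (72 h) in co-culture. The standard control with replicate number 1 at 72 h was the lowest library of Gpd1. Aqp7, the glycerol channel of adipocytes, ranged from 0.259 to 11.95 FPKM, Slc2a4, the insulin-dependent glucose transporter, from 0.359 to 12.9 FPKM, and Thrsp, a gene of lipogenic tissues, from 0.164 to 15.1 FPKM. All 3 were highest in an inverse control of 72 h. Pck1, an enzyme of glycerol synthesis, did not exceed 1.73 FPKM and rested on a median of 8 fragments per library.

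Adipoq, which encodes adiponectin and lies on chromosome 16 from 23146536 to 23158028, had 9.47, 30.0 and 81.8 FPKM in standard controls at 24 h and 0.734, 65.6 and 64.0 at 72 h. In standard co-culture Adipoq had 11.3, 32.8 and 69.9 FPKM at 24 h and 7.44, 23.3 and 61.1 at 72 h. In inverse controls it had 21.5, 19.3 and 31.8 (24 h) and 125, 44.3 and 115 (72 h) FPKM, and in inverse co-culture 34.7, 20.03 and 14.5 (24 h) and 6.66, 15.9 and 1.70 (72 h). A single standard control, replicate 1 at 72 h, was therefore lower than every inverse library, while the other two standard controls of that time lay close together. Cfd, the complement factor adipsin, had 0.549, 45.2 and 48.0 FPKM in standard controls of 72 h, with the same low library, and 70.7, 27.1 and 76.0 in inverse controls of 72 h beside 8.25, 10.96 and 4.48 in inverse co-culture. Retn, encoding resistin, reached 10.0 FPKM, and its inverse groups overlapped at 72 h because co-culture replicate 2 lay at 3.37 and control replicate 2 at 3.33 FPKM. Lep, the hormone leptin, did not exceed 2.92 FPKM and rested on a median of 13 fragments. Hp, which encodes haptoglobin and is made by liver and fat, had 52.8, 766 and 884 (24 h) and 59.4, 1044 and 957 (72 h) FPKM in standard controls and 63.5, 854 and 856 (24 h) and 222, 1124 and 1145 (72 h) in standard co-culture. Inverse values of Hp were 329, 405 and 523 (24 h) and 1020.3, 565 and 938 (72 h) FPKM in controls and 562, 406 and 407 (24 h) and 449, 495 and 166 (72 h) in co-culture. Replicates 2 and 3 of the standard model were far above replicate 1 for Hp in all 4 groups. Rbp4, the retinol carrier of blood, did not follow the others, with 9.84, 3.46 and 9.76 FPKM in inverse controls and 9.80, 4.18 and 7.29 in inverse co-culture at 72 h, and its highest value, 15.7 FPKM, in standard co-culture at 72 h. Serpina3c, a protease inhibitor from a cluster of closely related genes that could share its reads, ranged from 0.142 to 12.02 FPKM.

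Among receptors and other enzymes, Adrb3, the adrenergic receptor that starts lipolysis in fat, ranged from 3.74 to 42.6 FPKM and Adipor2, a receptor of adiponectin, from 28.2 to 98.4 FPKM. Both were highest in inverse controls of 72 h. Klb, a co-receptor of fibroblast growth factors, was between 1.16 and 2.09 FPKM in inverse controls of 72 h and at 0 in the 3 inverse co-culture libraries of that time. Acvr1c, an activin receptor of adipocytes, did not exceed 2.71 FPKM. Car3, a carbonic anhydrase abundant in fat, had 23.8, 107 and 188 (24 h) and 1.84, 168 and 138 (72 h) FPKM in standard controls and 26.4, 93.9 and 167 (24 h) and 5.27, 40.2 and 96.4 (72 h) in standard co-culture. The inverse libraries of Car3 had 38.2, 34.3 and 56.4 (24 h) and 81.6, 41.5 and 72.8 (72 h) FPKM in controls and 50.3, 30.7 and 16.96 (24 h) and 6.92, 26.6 and 1.49 (72 h) in co-culture. Unlike Plin1, Car3 had its highest values in standard libraries, and the largest inverse value, in control replicate 1 at 72 h, lay below every standard library of replicates 2 and 3 except co-culture replicate 2 at 72 h. Cdo1, which breaks down cysteine, had 23.8, 42.6 and 50.8 FPKM in standard controls and 6.72, 10.9 and 39.8 in standard co-culture at 72 h, and 105, 54.7 and 106 and 5.72, 11.1 and 1.71 in the inverse model. Retsat, a retinol saturase, ranged from 12.2 to 30.5 FPKM.

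**Figure D2:**
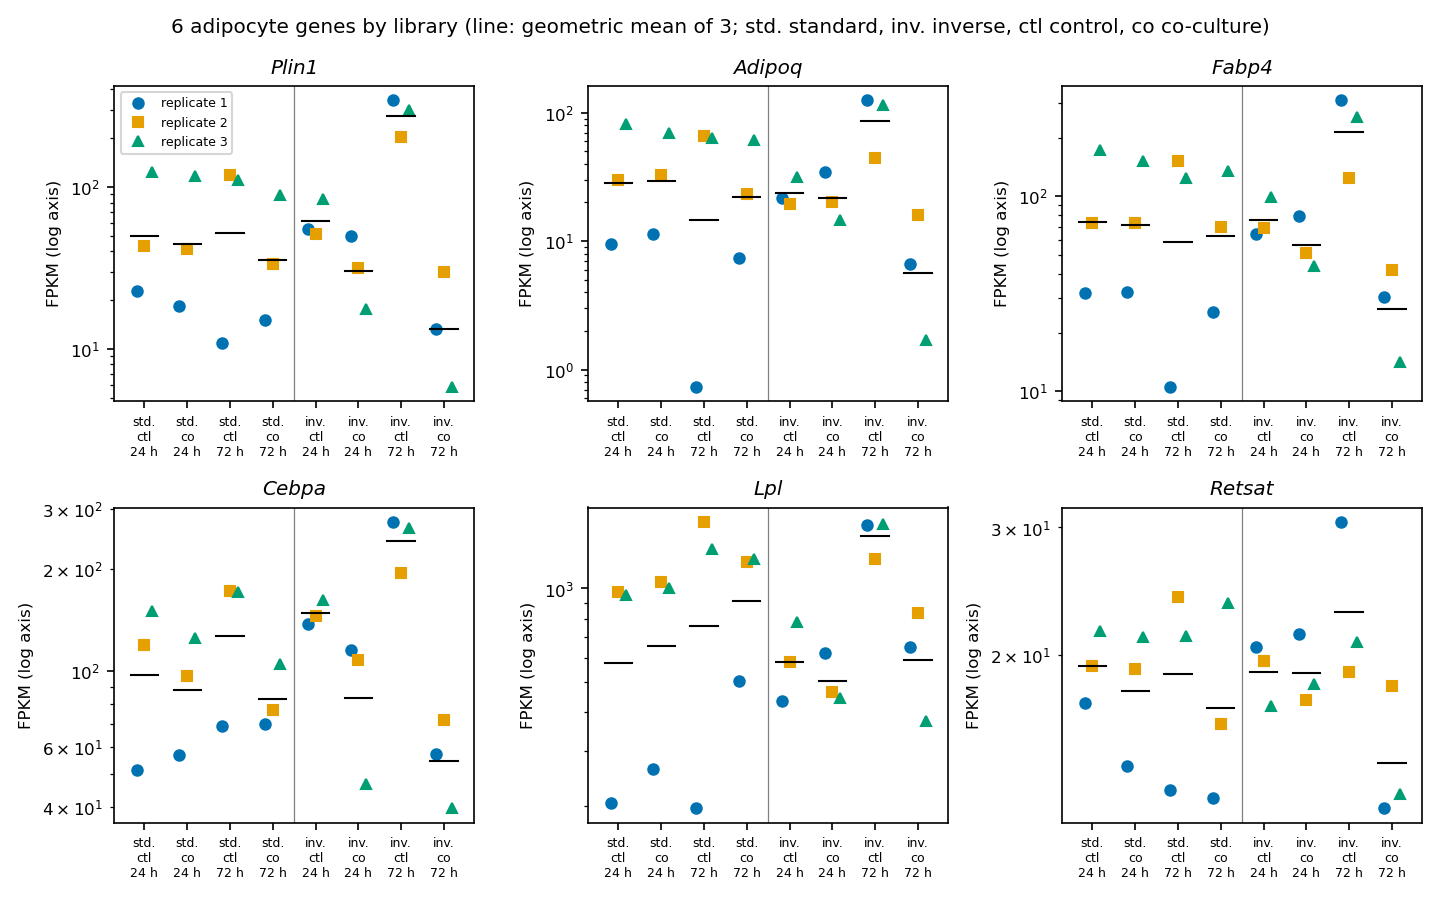
FPKM on a log axis of 6 of the genes in each library, by group, with the replicate number as colour and shape and the geometric mean of 3 libraries as a line. Plin1 lies between 204 and 343 FPKM in inverse controls of 72 h and between 5.82 and 29.8 in inverse co-culture, while in the standard model the spread within each group is wider than the distance between groups for Plin1, Adipoq and Lpl.

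In the standard model the question was whether co-culture with distant KPC cells moved these genes. At 24 h, with limma, 0 of 27 genes tested passed an adjusted p of 0.05, where 0% of the 12859 genes tested passed, and 0 of the 27 had an unadjusted p under 0.05, beside 2.89% of all. The median log2 difference of the 27 was -0.06, and that of all genes tested was -0.01. At 72 h 0 of 28 genes passed, where 0% of the 12863 genes tested passed, and again 0 of the 28 had an unadjusted p under 0.05, beside 6.22% of all. Their median log2 difference was -0.22 and that of all genes -0.09. The study, with DESeq2, reported differentially expressed genes in standard co-culture at both times. A share of 0% therefore describes this fit on FPKM and does not mean that no gene changed. In no member were the 3 co-culture libraries all above or all below the 3 controls at either time, where the groups did not overlap in 7.73% of all genes tested at 24 h and in 13.1% at 72 h. With limma's voom on recovered fragments, 0 members passed at either time. The share of all genes that passed with voom is not given here, so nothing is read from this count. The numbers pair the libraries of this model, and with the replicate block 0 of the 27 and 0 of the 28 passed, beside 1.22% of all genes at 24 h and 0.00777% at 72 h, with 4 and 3 members at an unadjusted p under 0.05, beside 15% and 10.8% of all genes.

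The intervals of the fit without the replicate block were wide. For Plin1 the log2 difference between co-culture and control was -0.15 at 24 h (95% interval from -2.18 to 1.88) and -0.55 at 72 h (from -3.08 to 1.98), and for Adipoq it was 0.38 at 72 h (from -3.57 to 4.34). With the block the intervals were -0.35 to 0.05 and -1.63 to 0.52 for Plin1 at 24 h and 72 h, and -1.55 to 2.31 for Adipoq at 72 h. Cdo1 had the largest difference at 72 h, a log2 difference of -1.34 (standard error 0.64, 95% interval from -2.88 to 0.21, limma adjusted p = 0.789, and 0.335 with the replicate block). The direction at 72 h rested on single libraries. Without the standard control of replicate 1 the median of the members was -1.02, without that of replicate 2 it was 0.27, without that of replicate 3 it was 0.25 and without the co-culture library of replicate 1 it was 0.13. With replicate 1 left out of both groups (an alternative chosen after seeing the values), the median was -0.59 and 0 genes passed.

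Between time points of the standard model no member passed either. In controls at 72 h against 24 h, 0 of 28 passed with limma, where 0% of 12963 genes passed and 0.98% of all and 0 of the 28 had an unadjusted p under 0.05. The median log2 difference of both the members and all genes was 0.01. Gpd1 had a log2 difference of -1.16 (standard error 1.35, 95% interval from -4.43 to 2.12, limma adjusted p = 1, and 0.588 with the replicate block), Cfd a log2 difference of -1.16 (standard error 1.61, 95% interval from -5.06 to 2.74, limma adjusted p = 1, and 0.702 with the replicate block) and Car3 a log2 difference of -1.06 (standard error 1.76, 95% interval from -5.31 to 3.19, limma adjusted p = 1, and 0.73 with the replicate block). Without the standard control of replicate 1 at 72 h they were 0.28, 0.67 and 0.95, and without replicate 1 at both times they were -0.38, -0.05 and 0.10. The median of the members was 0.81 without the single library. In co-cultured PSC at 72 h against 24 h, 0 of 27 passed, where 0% of 12805 genes passed and 3.65% of all and 0 of the 27 had an unadjusted p under 0.05, and the median was -0.09 beside -0.07 over all genes. Cidec had a log2 difference of -1.18 (standard error 0.94, 95% interval from -3.41 to 1.06, limma adjusted p = 0.876, and 0.266 with the replicate block) and Car3 a log2 difference of -1.41 (standard error 1.11, 95% interval from -4.07 to 1.25, limma adjusted p = 0.876, and 0.328 with the replicate block). The groups did not overlap in 0 of the members tested, beside 4.57% of all genes in controls and 10.1% in co-culture. In both comparisons 0 members passed with voom, for which the share of all genes is not given here. With the replicate block 0 members and 0% of all genes passed in both. At an unadjusted p under 0.05 with the block were 4 of the 28 members in controls, beside 8.91% of all genes, and 10 of the 27 in co-culture, beside 12.5% of all genes. The 10 were Plin1, Cidec, Cd36, Gpd1, Adipoq, Cfd and Car3, each with a negative difference, and G0s2, Lpl and Hp, each with a positive one, and the lowest blocked limma adjusted p among them was 0.266 (Cidec).

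Libraries with the same number were also compared in pairs. At 72 h, 22 of the 28 members were higher in standard co-culture than in control for replicate 1, 26 were lower for replicate 2 and 20 were lower for replicate 3. The medians of these pair differences were 0.79, -1.09 and -0.16, while those of all genes tested were -0.04, -0.18 and -0.05. At 24 h the medians were 0.06, -0.06 and -0.16, close to those of all genes at 0.04, -0.06 and -0.02. Between the controls of the 2 times, 28 of 28 members were higher at 72 h for replicate 2, with a median of 0.79, and 20 were lower for replicate 1, with a median of -0.68. Between co-culture and control at 72 h, the direction of most members was therefore not the same in the 3 pairs. Between the co-cultures of the 2 times the pairs lay closer together, with 18, 16 and 21 of the 27 members lower at 72 h and medians of -0.17, -0.06 and -0.23, beside -0.05, -0.08 and -0.07 for all genes. The pair differences of Plin1 were -0.28, -0.31 and -0.38 and those of Cfd -0.55, -0.54 and -0.62, and neither passed an adjusted p.

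**Figure D3:**
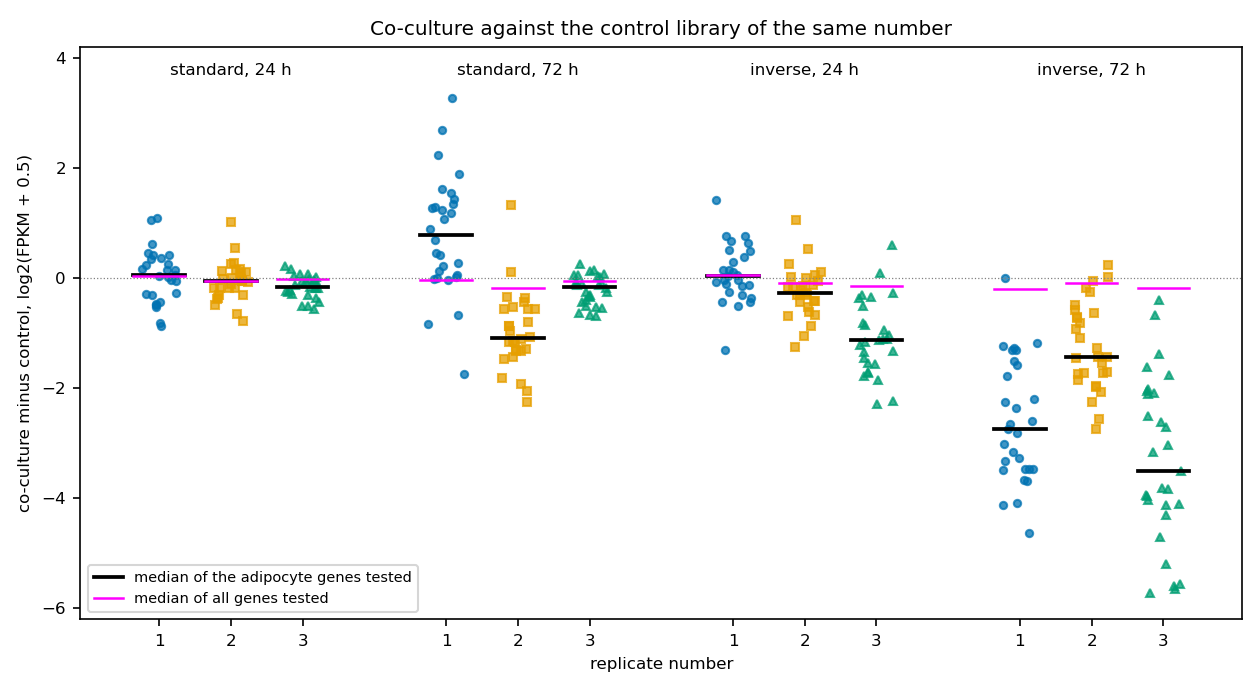
Log2 difference between the co-culture and the control library of the same replicate number, on the log2(FPKM + 0.5) scale, for each adipocyte gene tested (points), with the median of these genes (black) and of all genes tested (magenta). In the standard model at 72 h the black medians are 0.79, -1.09 and -0.16 for replicates 1, 2 and 3, and in the inverse model at 72 h they are -2.74, -1.43 and -3.51. Inverse libraries share only a number, so their pairs cannot be taken as matched.

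These genes differed more in the standard model between replicate numbers than between groups. Averaged over the 4 groups, replicate 1 had the lowest mean log2 level of the 3 numbers in 27 of the 28 members that exceeded 1 FPKM in 3 or more of the 12 libraries, and replicate 3 had the highest in 26. Over all 13694 genes that passed this filter, replicate 1 was the lowest in 48.4% and replicate 3 the highest in 30.4%. In 21 of the 28 members replicate 1 was the lowest library in each of the 4 groups, beside 18.6% of all genes. The exception in the mean was Fabp5, in which replicate 2 was the lowest. Of the total spread of a member over the 12 libraries, taken as the sum of squares of log2(FPKM + 0.5), a median of 75.3% lay between the means of the replicate numbers (from 31.3% in Fabp5 to 91.5% in Hp) and a median of 5.6% between the means of the groups (up to 29.8% in Cdo1). Over all genes the medians were 40.5% and 21.5%. The share between numbers was the larger in 28 of the 28 members and in 63.3% of all genes. These figures describe the libraries and were not tested.

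**Figure D4:**
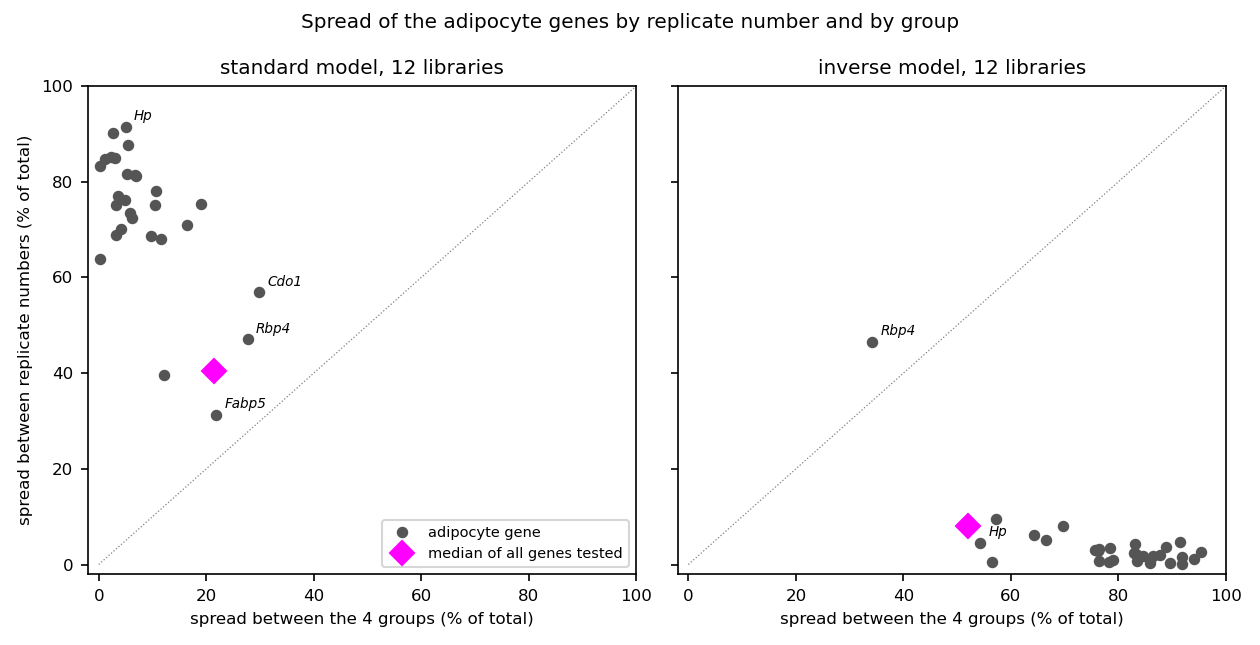
Share of the spread of each adipocyte gene that lies between the means of the 3 replicate numbers (vertical, % of the sum of squares of log2(FPKM + 0.5)) against the share between the means of the 4 groups (horizontal), for the 12 libraries of each model, with the median of all genes tested as a diamond. In the standard model the 28 genes lie above the dotted line of equal shares, with Fabp5 nearest to it, and in the inverse model 28 of 29 lie below it and Rbp4 above.

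Other genes moved with the replicate numbers too. Acta2 was between 1194 and 5963 FPKM in the 4 standard libraries of replicate 1 and between 476 and 1509 FPKM in the 8 libraries of replicates 2 and 3. The 10 activated PSC genes together did not follow Acta2. They summed to between 25970 and 42150 FPKM in replicate 1 (median 28300) and between 29780 and 47370 FPKM in replicates 2 and 3 (median 37500). Acta2 therefore does not stand for activation as a whole. The 14 macrophage markers, led by Lyz2 and the complement genes C1qa, C1qb and C1qc, summed to between 44.2 and 96.7 FPKM in replicate 1, between 478 and 1603 FPKM in replicate 2 and between 70.9 and 212.5 FPKM in replicate 3. The macrophage markers thus peaked in replicate 2 and most adipocyte genes in replicate 3, so their orders differ. The 6 mesothelial markers summed to between 13.4 and 24.6 FPKM in replicate 1 and between 33.95 and 49.5 FPKM in replicates 2 and 3, with Wt1 the most abundant of them at 12.7 to 37.5 FPKM in the standard libraries. The 10 endothelial markers summed to between 5.07 and 8.75 FPKM in replicate 1 and between 6.60 and 9.71 FPKM in replicates 2 and 3, ranges that overlap. The part of these cell types in the result was not tested.

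**Figure D5:**
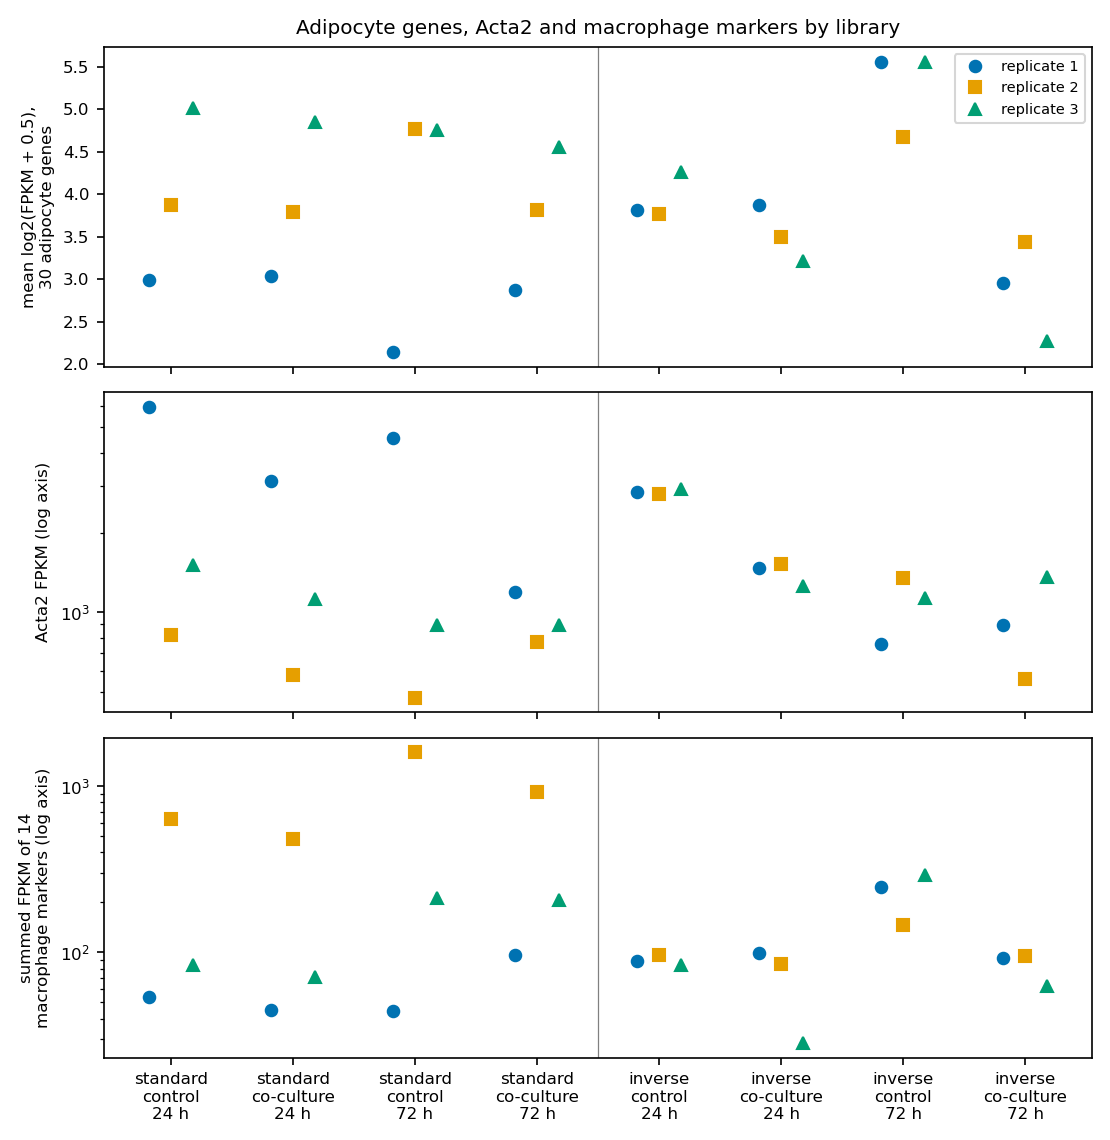
Mean log2(FPKM + 0.5) of 30 adipocyte genes that exceeded 1 FPKM in 3 or more libraries (top), Acta2 FPKM (middle, log axis) and summed FPKM of 14 macrophage markers (bottom, log axis) in each library, by group, with the replicate number as colour and shape. In the standard model replicate 1 is lowest at the top and highest in the middle in all 4 groups, and replicate 2 is highest at the bottom. The sum of the 10 activated PSC genes, not drawn, did not peak in replicate 1.

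In the inverse model, whose values chose the genes, the 30 members that exceeded 1 FPKM in 3 or more of the 24 libraries had a mean log2(FPKM + 0.5) level of 3.77 to 4.26 in controls at 24 h and of 4.67 to 5.56 in controls at 72 h. In co-culture the level was 3.21 to 3.87 at 24 h and 2.27 to 3.44 at 72 h. It ranged from 2.14 to 5.01 over the 12 standard libraries. The inverse controls of 24 h lay within the range of the standard controls, and inverse controls 1 and 3 of 72 h lay above every standard library. In inverse co-culture against control at 72 h, 25 of the 29 genes tested passed an adjusted p of 0.05 with limma, all lower in co-culture, beside 12.8% of all genes in either direction and 9.57% that were lower. In this comparison Klb, Lgals12, Aqp7 and Serpina3c exceeded 1 FPKM in controls only. They met the filter only through the group in which they were high, so their direction is no result. The log2 differences were -4.32 for Plin1, -3.98 for Cdo1, -3.77 for Adipoq, -3.69 for Cidec, -2.13 for Cebpa, -1.55 for Pparg and -1.32 for Lpl, with a median of -2.42 over the 29 genes and of -0.16 over all genes. The 4 that did not pass were Retn (-2.03), Rbp4 (-0.05), Hp (-1.29) and Retsat (-0.68). Of the 29 genes tested, 27 were lower in each co-culture library than in each control, beside 28.8% of all genes tested, and Retn and Rbp4 overlapped. Of all 34 genes, untested ones included, 30 were lower in this way, and Cidea and Gpihbp1 were at 0 in all 6 libraries. Without the control of replicate 3 the count of genes that passed was 13 and without that of replicate 1 it was 14. Scaling by the median of gene ratios moved the median of all genes by 0.14 and the share of lower genes among all those that passed from 74.6% to 49.8%.

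At 24 h of inverse co-culture only Cdo1 passed, 1 of 27 genes tested with limma and lower in co-culture, beside 2.47% of all genes in either direction and 1.39% that were lower. Without replicate 2 in both groups, whose co-culture library held 15.2 FPKM of the keratin gene Krt8, it did not pass, nor without replicate 3 in both groups, and it was lost without any single one of the 3 controls. Between the libraries with the same number, the median difference of the members was 0.04 for replicate 1, -0.27 for replicate 2 and -1.12 for replicate 3, beside 0.05, -0.09 and -0.14 for all genes. Libraries of this model share only a number, so these pairs cannot be taken as matched. The 10 epithelial markers summed to between 3.38 and 45.9 FPKM in these co-culture libraries and to between 1.27 and 2.03 FPKM in their controls. In controls at 72 h against 24 h, 23 of 29 genes passed with limma, all higher at 72 h, beside 19.2% of all genes in either direction and 10.2% that were higher, with log2 differences of 2.14 for Plin1, 2.08 for Thrsp, 1.95 for Lgals12 and 1.84 for Adipoq and a median of 1.43. Here Klb exceeded 1 FPKM at 72 h only, so it met the filter only through the group in which it was high. Pparg (0.49), G0s2 (0.36), Retn, Rbp4, Retsat and Car3 did not pass. With all 24 libraries in the fit, 3 of the 29 passed. In co-culture at 72 h against 24 h, 0 of 26 passed with limma, beside 0.00784% of all genes, 10 of the 26 and 15.3% of all had an unadjusted p under 0.05, and the median was -0.62. With voom 0 passed, and the share of all genes with voom is not given here.

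Macrophage markers moved with the adipocyte genes in the inverse model. The 14 markers summed to between 147 and 293 FPKM in controls at 72 h, between 63.2 and 94.85 FPKM in co-culture at 72 h, between 83.5 and 96.5 FPKM in controls at 24 h and between 28.5 and 99.5 FPKM in co-culture at 24 h. With limma, 7 of 10 markers tested were lower in co-culture at 72 h, beside 9.57% of all genes. In controls 8 of 10 markers were higher at 72 h than at 24 h, beside 10.2% of all genes. Their part in the values of Fabp4, Fabp5, Lpl and Cd36, which macrophages also express, was not tested. The endothelial markers Pecam1, Cdh5, Cldn5 and Emcn were at or near 0 in every library, while Egfl7, Flt1 and Tek were expressed. Epithelial markers summed to no more than 11.1 FPKM in inverse co-culture at 72 h. Krt19 had a log2 difference of 2.03 against the controls of that time, but it exceeded 1 FPKM in co-culture only. It met the filter only through the group in which it was high, so its direction is no result.

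Other genes of fat cells, from lists written when earlier results of these data were known, were set beside the members. Of 27 genes of lipid storage, most of them of triglyceride synthesis, lipolysis and fatty acid synthesis, 26 were tested in each comparison. The list also holds Cav1, Plin2, Plin3, Plin5, Insr, Irs1, Angptl4 and Bscl2, which are not enzymes of these pathways. With the standard libraries 0 passed in any of the 4 comparisons, with or without the replicate block. In inverse co-culture at 72 h 18 passed, all lower, beside 9.57% of all genes that were lower. The median of the 26 was -1.13 and that of all genes -0.16. In inverse controls over time 23 passed, all higher, beside 10.2% of all genes that were higher. Here the median of the 26 was 1.07 and that of all genes 0.04. At 24 h of inverse co-culture 1 was higher (Scd1) and 1 was lower (Cav1), beside 2.47% of all genes in either direction. By level the list was led by Acly, Scd1, Cav1 and Scd2, and the log2 differences in inverse co-culture at 72 h were -0.22, -0.38, -2.35 and 0.15, of which that of Cav1 passed. Acly, which supplies acetyl-CoA, and the fatty acid desaturases Scd1 and Scd2 are also used by fibroblasts.

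Of 15 other regulators that favour adipocyte differentiation, 13 were tested. None passed in the standard model. In inverse co-culture at 72 h 5 were lower (Srebf1, Ebf1, Zfp423, Nr1h3 and Rxra) and 0 were higher, beside 9.57% of all genes that were lower. In inverse controls over time 5 were higher and 0 lower, beside 10.2% of all genes that were higher. Cebpb, an early C/EBP factor and the most abundant of the list, had log2 differences of 0.29 in inverse and 0.53 in standard co-culture at 72 h, neither of which passed. Rxra, the partner of PPARG, had log2 differences of -1.002 in inverse and -0.59 in standard co-culture at 72 h, and the latter did not pass. Of 12 genes that oppose the programme, 8 were tested, and Klf2, a factor that represses Pparg, was lower in standard co-culture at 24 h with the replicate block (log2 difference -0.81, limma adjusted p = 0.0300, and 1 without the block). It was also lower in inverse co-culture at 24 h (-1.11). Dlk1 and Wnt1 were near 0 in all libraries. Ddit3, a stress-induced C/EBP relative, Nr2f2 and Runx2 passed in no standard comparison.

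The 7 genes of adipose progenitors were all tested. Pi16, a progenitor marker, was higher in standard co-culture at 24 h with the replicate block (log2 difference 0.94, limma adjusted p = 0.02004, and 1 without the block). In inverse co-culture at 72 h, 3 of the 7 were higher (Pdgfra, Dpp4 and Clec11a) and 2 were lower (Cd34 and F3). Of all genes 12.8% passed in either direction and 9.57% were lower. F3, Ly6a and Pdgfra were abundant in every library, at no less than 269, 182 and 92.4 FPKM. Of the 10 activated PSC genes, Timp1 and Fn1 were higher in standard co-culture at 24 h with the replicate block (log2 differences 1.501 and 0.78, limma adjusted p = 0.00971 and 0.0274, and 1 for each without the block). In that fit 0 of the 27 adipocyte genes tested passed, beside 1.22% of all genes. With so low a share over all genes, nothing is read from this contrast.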

How the data were processed

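Per the labels and the study's methods, the authors aligned paired reads to the Ensembl GRCm38.p6 mouse genome with HISAT2 2.0.5, counted them per gene with featureCounts 1.5.0-p3 at default settings, which do not use strand, and deposited FPKM for 53801 genes in 24 libraries. Reads of overlapping and antisense genes therefore cannot be told apart. The annotation release is not given in the sources used here. Whole fragments were recovered from the FPKM steps (94.4% of genes whole in all libraries within 0.02 of a fragment), giving 15932737 to 24798761 fragments per library. Each of 8 comparisons was fitted over its 6 libraries with limma 3.58.1 (moderated test with an intensity trend, two-sided, Benjamini-Hochberg over all genes tested, adjusted p under 0.05) on log2(FPKM + 0.5), which understates changes of low genes, for genes above 1 FPKM in at least 3 libraries. The code was tested on simulated data. One allele of the KPC line is not reported here. The 34 genes and the lists were chosen with earlier results of these data known. Genes are described by role, with full statistics for differences of at least 1 on the log2 scale in the standard model, and the 4 most abundant genes of each other list. Libraries with the same number deviated together in the standard model (every correlation of deviations between 0.381 and 0.823), so the numbers pair them, though the labels do not say what a number marks. In the inverse model the correlations ran from -0.171 to 0.214, and the libraries share only a number. Correlations between genes over the standard libraries were not given, since the libraries fall into sets by number. With 3 against 3 libraries an exact permutation test cannot go below 0.1. Alternatives were other pseudocounts, filters and scalings, no trend, all libraries in one fit, the replicate block, voom and each library left out.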

Additional observations from a re-analysis of the deposited data

Results flagged for a closer look

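The differences of haptoglobin (Hp) at 72 h had opposite signs in the 2 models, and neither passed with limma. In the pairs of libraries with the same number the log2 differences were 1.89, 0.11 and 0.26 in standard co-culture against control (mean 0.75, 95% interval from -2.22 to 3.72, with most of it in the first pair), and in inverse co-culture the differences were -1.18, -0.19 and -2.50 (mean -1.29), a distance of 2.04. This distance was not tested, and input and coexistence time cannot be told apart from the model. Inverse libraries share only a number, so their pairs cannot be taken as matched.

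In the inverse model 13 of the 26 genes tested in both comparisons were higher at 72 h than at 24 h in controls and lower in co-culture, with the same direction in each pair of libraries that share a number. Serpina3c, Acvr1c and Klb, not tested in both, had the same pattern of signs. The distance between the log2 change of controls and that of co-culture was 1.04 for Pparg, 1.31 for Cebpa, 3.30 for Plin1, 2.37 for Plin4, 2.94 for Cidec, 2.88 for Cd36 and 2.57 for Fabp4. It was 2.25 for Gpd1, 2.58 for Aqp7, 3.64 for Adipoq, 2.70 for Cfd, 2.61 for Car3 and 2.94 for Cdo1. For Adipoq the changes were 1.84 in controls and -1.80 in co-culture. These values chose the genes, so they are a description, and the distances were not tested. The share of all genes with this pattern is not given here, so nothing is read from the count of 13. Inverse libraries share only a number, so the same direction in each pair is not agreement between matched replicates.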

How the results depend on the processing

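With the standard model 0 members passed in all 4 comparisons under every alternative, the replicate block and each left-out library included, although leaving out single libraries moved the median of the members between -0.65 and 0.53 (24 h) and between -1.02 and 0.27 (72 h). Shares of all genes that passed are given for the main fit and, in the standard model, for the replicate block only. In standard controls over time, 3 named genes turned direction without the control of replicate 1 at 72 h, with Car3 at 0.95, Cfd at 0.67 and Gpd1 at 0.28, and without replicate 1 in both groups they were 0.10, -0.05 and -0.38. Over the left-out libraries the lowest values were -2.14 for Car3, -2.09 for Cfd and -1.98 for Gpd1. In inverse co-culture at 24 h the count of 1 became 0 with no filter, with no trend, with all 24 libraries, with the replicate block and without replicate 2 or 3 in both groups, and 2 with voom, and it ran from 0 to 2 over the left-out libraries. At 72 h the count of 25 was 19 with the replicate block and ran from 13 to 27 over the left-out libraries. In inverse controls over time the count of 23 was 3 with all 24 libraries in the fit, 24 with the replicate block and 17 to 26 over the left-out libraries. The cause of these shifts was not tested. Each named value was counted once under each alternative. Of these entries, 687 of the inverse and 98 of the standard model kept their side of the threshold. A further 120 inverse entries no longer passed, and 4 standard entries reversed direction. Members under about 20 fragments per library (Cidea, Gpihbp1, Pck1, Lep and Klb) are limited by depth.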
